A study of Mus musculus with 6 samples.

Results

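The genes described here are the 3 transforming growth factor beta (TGF-beta) ligands Tgfb1, Tgfb2 and Tgfb3, the receptors Tgfbr1 and Tgfbr2, the activating integrin chains Itgb8 and Itgav, and the secreted target gene Tgfbi. They were chosen by symbol, with earlier results of these data known. All 8 were found once in each library, among 32285 genes in the enriched fraction and 54752 genes in the depleted fraction.

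TGF-beta ligands are secreted in a latent form, held by their own propeptide, and signal only after release. The integrin alpha v beta 8, made of the Itgav and Itgb8 chains, binds an arginine-glycine-aspartate (RGD) motif in the propeptide and activates the ligand. Free ligand binds the type II receptor Tgfbr2, which recruits and phosphorylates the type I receptor Tgfbr1, and SMAD proteins then carry the signal to the nucleus. In lymph nodes this pathway is known for supporting regulatory T cells and restraining effector T cells, and dendritic cells with Itgb8 are known activators of the latent ligand.

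Single-cell RNA-seq was done on axillary and inguinal nodes from mice of the C57Bl/6 strain. The arms were mice bearing YUMMER1.7 melanoma, mice bearing YUMM1.7 melanoma and tumor-free (naive) mice. YUMM1.7 is a mouse melanoma line with activated Braf, and YUMMER1.7 is its ultraviolet-irradiated derivative with more somatic mutations. Nodes of several mice were pooled, digested with collagenase and enriched with CD11b and CD11c beads in 1 fraction, or labelled as de-enriched for CD45 in the other, giving 1 library per arm and fraction. Age, sex and the number of mice are not given in the labels used here, and each tumor model is a single cell line. All comparisons below are therefore between single libraries. They carry no replicate check and no p-value, and the 95% intervals cover counting error only, not differences between mice.

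After filtering, the enriched libraries held 6466 cells in YUMMER1.7, 7095 cells in YUMM1.7 and 9951 cells in naive nodes, and the depleted libraries 6540, 8301 and 12356 cells in YUMMER1.7, YUMM1.7 and naive nodes. The deposited totals were between 67709285 and 86471908 UMIs. A UMI is 1 captured RNA molecule, and levels are given as CPM, the UMIs of a gene in the summed cells of a class and library, scaled to the total UMIs of those cells, exact Poisson intervals being used for levels and exact conditional binomial intervals for ratios. Libraries of a fraction shared 6 to 35 cell barcodes, and the fractions of an arm shared 9 to 49. Cells were clustered within each fraction, and clusters were named from marker genes, so the names are rebuilt here and are not the authors'. In the classes compared, every marker of the class had UMIs in each library, except that lymphatic endothelium of naive nodes had 6 of 7. The depleted fraction was not free of CD45-positive cells: clusters named B cell held 2053 of its YUMMER1.7 cells, 3602 of its YUMM1.7 cells and 5240 of its naive cells. Its naive library held only 5 fibroblastic reticular cells, 2 adventitial fibroblasts, 10 blood endothelial cells and 21 lymphatic endothelial cells, so stroma was compared between the tumor-bearing arms only.

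The RGD motif that the integrin reads is written in the ligand genes, and it separates the ligands. The coding strands around it are shown from the GRCm38 (mm10) genome with the RGD codons in capitals, because they are the site on which Itgb8 and Itgav act. In Tgfb1 (chr7:25697130-25697159, + strand) they are codons 244 to 246 of 390. In Tgfb3 (chr12:86062156-86062185, - strand) they are codons 261 to 263 of 412. The 442 codons of Tgfb2 held no in-frame RGD codons.
Tgfb1: agccccaaacgtCGGGGCGACctgggcacc
Tgfb3: gatgaccatggcCGTGGAGACctggggcgt
In the GENCODE vM21 annotation Tgfb1 lies on chromosome 7, 25687002 to 25705077, + strand, and Tgfb3 on chromosome 12, 86056745 to 86079041, - strand. Tgfb2 lies on chromosome 1, 186622792 to 186705989, - strand, Tgfbr1 on chromosome 4, 47353222 to 47414931, + strand, and Tgfbr2 on chromosome 9, 116084293 to 116175360, - strand. Itgb8 lies on chromosome 12, 119158022 to 119238802, - strand, Itgav on chromosome 2, 83724397 to 83806916, + strand, and Tgfbi on chromosome 13, 56609523 to 56639562, + strand. Tgfb2, Tgfb3 and Itgav overlap annotated genes on the opposite strand, so reads of such partners count with them unless strand was used in counting, which is not given in the sources used here.

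Tgfb1, the ligand most used by immune cells, was present in every class, and monocytes held its highest levels. Classical monocytes had 258 CPM in YUMMER1.7, 300.2 CPM in YUMM1.7 and 310.1 CPM in naive nodes of the enriched fraction. Non-classical monocytes followed with 252 CPM in YUMMER1.7, 266 CPM in YUMM1.7 and 229 CPM in naive nodes. The mean over the 3 libraries was 289 ± 27.6 CPM (SD, n = 3) in classical monocytes and 17.6 ± 3.03 CPM (SD, n = 3) in migratory dendritic cells (DC), which reach the node from other tissue and were the lowest of the 11 classes. The means then ran, from high to low, through innate-like T cells, macrophages, B cells, NK cells, type 2 conventional DC (cDC2), type 1 conventional DC (cDC1), T cells and neutrophils. Neighbours in this order overlapped in their ranges over the libraries, except that macrophages stayed above B cells, cDC2 stayed above cDC1, neutrophils stayed below T cells and migratory DC stayed below neutrophils. Migratory DC had 19.7 CPM in YUMMER1.7, 18.98 CPM in YUMM1.7 and 14.1 CPM in naive nodes. In the depleted fraction plasma cells and fibroblastic reticular cells were as low, with means of 14.2 ± 1.74 CPM (SD, n = 3) and 19.1 ± 2.87 CPM (SD, n = 2). No Tgfb1 ratio passed 2-fold. Its largest log2 ratios were in migratory DC of the depleted fraction, 0.90 (0.30 to 1.52) for YUMM1.7 and 0.64 (0.03 to 1.28) for YUMMER1.7 over naive. In migratory DC of the enriched fraction YUMMER1.7 over naive was 0.48 (0.21 to 0.74). It was lower in NK cells of the enriched fraction for YUMM1.7 over naive, -0.53 (-0.75 to -0.32), and in T cells for YUMMER1.7 over naive, -0.45 (-0.73 to -0.18).

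Tgfb2 and Tgfb3 were highest in stromal cells. Adventitial fibroblasts, which sheathe the larger vessels of the node, had 51.8 CPM in YUMMER1.7 and 75.02 CPM in YUMM1.7 nodes for Tgfb2 and 44.2 CPM in YUMMER1.7 and 38.96 CPM in YUMM1.7 nodes for Tgfb3. Lymphatic endothelium was split: its cluster 10 had 54.4 CPM in YUMMER1.7 and 66.9 CPM in YUMM1.7 nodes for Tgfb2, while its Ccl20-positive cluster 18, a mark of the floor of the subcapsular sinus, had 1.62 CPM in YUMMER1.7 and 4.63 CPM in YUMM1.7 nodes. Tgfb3 followed the same split, with 39.8 CPM in YUMMER1.7 and 35.4 CPM in YUMM1.7 nodes in cluster 10 and 8.91 CPM in YUMMER1.7 and 13.2 CPM in YUMM1.7 nodes in cluster 18. Over the whole class Tgfb2 was 29.03 CPM in YUMMER1.7, 43.98 CPM in YUMM1.7 and 111 CPM in naive nodes, the naive level resting on 21 cells, of which 7 were in cluster 10 and 14 in cluster 18. Fibroblastic reticular cells, which build the T cell zone, kept Tgfb3 at 13.6 CPM in YUMMER1.7 and 12.8 CPM in YUMM1.7 nodes and Tgfb2 at 4.48 CPM in YUMMER1.7 and 4.92 CPM in YUMM1.7 nodes. Blood endothelium had Tgfb2 at 12.95 CPM in YUMMER1.7 and 31.03 CPM in YUMM1.7 nodes, a log2 ratio of -1.26 (-1.88 to -0.64), while its Tgfb3 stayed under 1 CPM in both libraries. In leukocytes both ligands were scarce. The highest Tgfb3 mean of the enriched fraction was 7.32 ± 1.77 CPM (SD, n = 3) in NK cells, ahead of 4.62 ± 0.847 CPM (SD, n = 3) in B cells. For Tgfb2 the highest of the 11 classes was migratory DC, with 2.30 ± 0.956 CPM (SD, n = 3). At these levels the leukocyte ratios that passed 2-fold rested on few UMIs: Tgfb2 in migratory DC with 14 UMIs in YUMMER1.7 and 36 UMIs in YUMM1.7 nodes, Tgfb3 in cDC2 with 8 UMIs in YUMMER1.7 and 30 UMIs in YUMM1.7 nodes, and Tgfb2 in plasma cells. The plasma cell log2 ratios were -1.06 (-2.23 to 0.16) for YUMMER1.7 and -1.003 (-2.04 to 0.12) for YUMM1.7 over naive, and both intervals reach past 0. The Tgfb3 ratio in cDC2, -1.08, turned to 0.89 when every cell was thinned to 2000 UMIs.

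**Figure D1:**
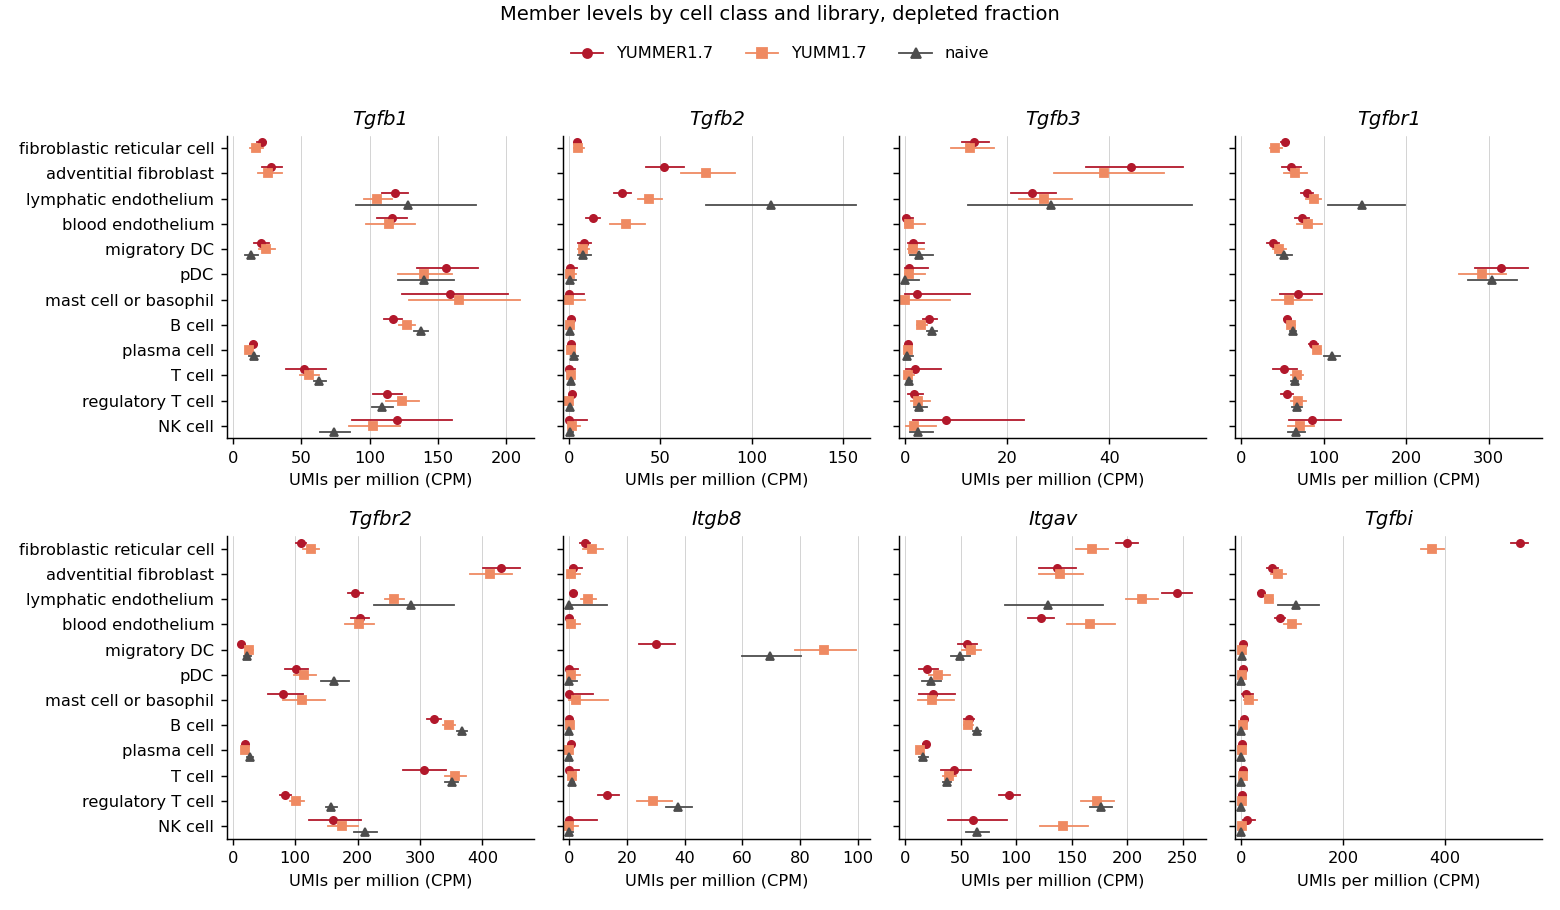
Levels of the 8 genes in the depleted fraction, with 1 point per library (CPM, 95% Poisson intervals) and cell classes down the page. Tgfb2 and Tgfb3 sit at 51.8 CPM and 44.2 CPM in YUMMER1.7 adventitial fibroblasts and near 0 in lymphocytes, while Tgfbi is highest in fibroblastic reticular cells.

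Receptor levels separated the classes more than they separated the arms. Tgfbr2, the ligand-binding chain, averaged 348 ± 61.7 CPM (SD, n = 3) in B cells, 343 ± 32.3 CPM (SD, n = 3) in macrophages and 312 ± 74.2 CPM (SD, n = 3) in T cells, ranges that overlap, and 9.27 ± 4.74 CPM (SD, n = 3) in migratory DC, below every other class. NK cells, innate-like T cells, neutrophils, both kinds of monocyte, cDC1 and cDC2 lay between, in falling order. The macrophages were not uniform. Cluster 4, led by the sinus macrophage genes Cd209b, Timd4 and Marco, had Tgfbr2 at 670.4 CPM in YUMMER1.7, 659 CPM in YUMM1.7 and 671 CPM in naive nodes, whereas cluster 14, led by Pf4 and complement genes, had 199.9 CPM in YUMMER1.7, 231 CPM in YUMM1.7 and 291 CPM in naive nodes. In the depleted fraction the highest mean was 421 ± 12.1 CPM (SD, n = 2), in adventitial fibroblasts. Tgfbr1, the signalling chain, averaged 303 ± 11.5 CPM (SD, n = 3) in plasmacytoid DC (pDC), the highest of the depleted fraction and nearly level over the arms, with 315 CPM in YUMMER1.7, 292 CPM in YUMM1.7 and 304 CPM in naive nodes. In the enriched fraction its highest mean was 209 ± 60.96 CPM (SD, n = 3), in macrophages, and its lowest 38.4 ± 2.42 CPM (SD, n = 3), in migratory DC.

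Both receptors tended to be lower in YUMMER1.7 than in naive nodes. Tgfbr2 was lower in 11 of 11 classes of the enriched fraction and 6 of 6 of the depleted fraction, with median log2 ratios of -0.40 and -0.56. The medians over all genes and classes were -0.06 and -0.04. Tgfbr1 was lower in 11 of 11 classes of the enriched fraction, though neutrophils had -0.001 (-0.26 to 0.26), with a median of -0.27, and in 5 of 6 of the depleted fraction, where pDC were the exception. Of the genes measured in all of those classes, 7.78% were lower in all 11 and 9.16% in all 6. The classes of a contrast come from the same pair of libraries and are not independent. With cells thinned to 2000 UMIs, Tgfbr1 was lower in 7 of 11 and Tgfbr2 in 9 of 11 enriched classes. In YUMM1.7 nodes Tgfbr2 was lower than naive in 8 of 11 enriched and 5 of 7 depleted classes, with median log2 ratios of -0.13 and -0.28, and Tgfbr1 in 9 of 11 and 4 of 7, with medians of -0.31 and -0.06. The enriched Tgfbr1 median was thus further below 0 for YUMM1.7 than for YUMMER1.7. B cells of the enriched fraction had Tgfbr2 at 312 CPM in YUMMER1.7, 313 CPM in YUMM1.7 and 419 CPM in naive nodes, a log2 ratio of -0.43 (-0.55 to -0.31) for YUMMER1.7 over naive. T cells had 249 CPM in YUMMER1.7, 293 CPM in YUMM1.7 and 394 CPM in naive nodes, a log2 ratio of -0.66 (-0.81 to -0.52). In both classes of the enriched fraction the tumor-bearing arms lay below the naive library. The enriched T cell class also held regulatory T cells in shares that differed between arms, given with Itgb8 below. Over all enriched T cell classes, Tgfbr2 averaged 113 ± 61.4 CPM (SD, n = 3) in cells with a Foxp3 UMI. Cells without one averaged 231 ± 34.4 CPM (SD, n = 3). The part of these shares in the T cell ratio was not tested. Depleted B cells had Tgfbr2 at 322 CPM in YUMMER1.7, 346 CPM in YUMM1.7 and 368 CPM in naive nodes, a log2 ratio of -0.19 (-0.25 to -0.13) for YUMMER1.7 over naive. Depleted T cells had 306 CPM in YUMMER1.7, 356 CPM in YUMM1.7 and 351 CPM in naive nodes, with -0.20 (-0.36 to -0.03) for YUMMER1.7 and 0.02 (-0.06 to 0.10) for YUMM1.7 over naive, so YUMM1.7 was not below naive there.

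**Figure D2:**
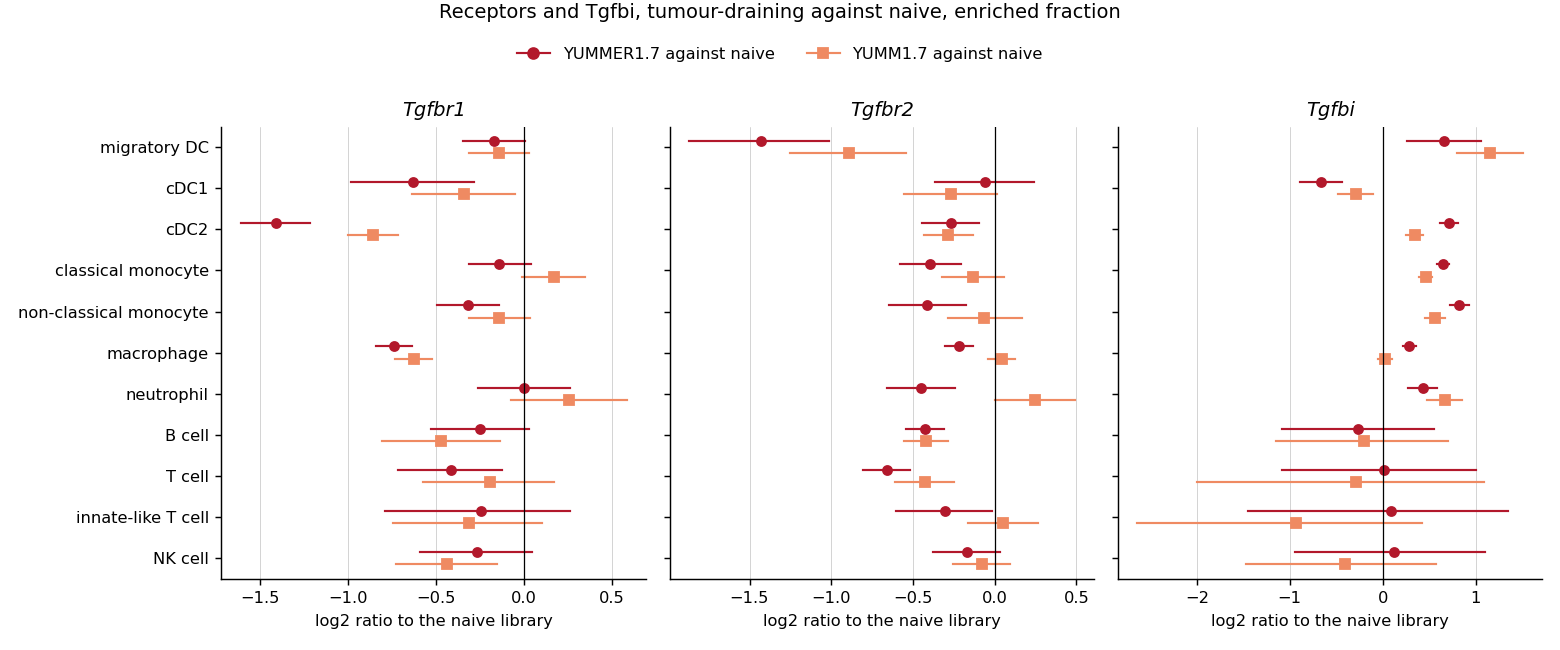
Log2 ratio of each tumor-bearing library to the naive library for Tgfbr1, Tgfbr2 and Tgfbi in the 11 classes of the enriched fraction, with 95% counting intervals. Every YUMMER1.7 point for Tgfbr1 and Tgfbr2 lies at or left of 0, and Tgfbi lies right of 0 in monocytes and cDC2 and left of 0 in cDC1.

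Receptor differences past 2-fold were found in cDC2 and in migratory DC. In cDC2, conventional DC that mainly prime CD4 T cells, Tgfbr1 was 29.04 CPM in YUMMER1.7, 42.6 CPM in YUMM1.7 and 77.1 CPM in naive nodes. The log2 ratio was -1.41 (-1.61 to -1.21) for YUMMER1.7 and -0.86 (-0.997 to -0.72) for YUMM1.7 over naive, and naive nodes stood above both. The class joins 2 clusters whose shares differ between arms: cluster 10, led by Mmp12, Dcstamp and Lpl, held 91 of the YUMMER1.7, 205 of the YUMM1.7 and 408 of the naive cells, and cluster 13 held 578 of the YUMMER1.7, 1061 of the YUMM1.7 and 710 of the naive cells. Within cluster 10 Tgfbr1 was 81.3 CPM in YUMMER1.7, 95.7 CPM in YUMM1.7 and 139 CPM in naive nodes, a log2 ratio of -0.77 (-1.09 to -0.47) for YUMMER1.7 over naive. Within cluster 13 it was 20.7 CPM in YUMMER1.7, 31.8 CPM in YUMM1.7 and 36.6 CPM in naive nodes, a log2 ratio of -0.82 (-1.10 to -0.54). The direction held inside each cluster, but neither ratio passed 2-fold. Macrophage cluster 14 showed the same order, with Tgfbr1 at 201 CPM in YUMMER1.7, 247 CPM in YUMM1.7 and 407 CPM in naive nodes and a log2 ratio of -1.01 (-1.12 to -0.91), whereas cluster 4 had 68.6 CPM in YUMMER1.7, 69.6 CPM in YUMM1.7 and 61.7 CPM in naive nodes, a log2 ratio of 0.15 (-0.29 to 0.61). Over the whole macrophage class the log2 ratio was -0.74 (-0.84 to -0.63), but most naive macrophages were in the shallow cluster 22 and most YUMMER1.7 ones in cluster 14. Tgfbr2 in migratory DC also passed 2-fold, at 5.40 CPM in YUMMER1.7, 7.85 CPM in YUMM1.7 and 14.6 CPM in naive nodes and a log2 ratio of -1.43 (-1.87 to -1.01). In the main migratory DC cluster, cluster 7, the T cell gene Cd3d moved the same way, with 0.976 CPM in YUMMER1.7, 1.66 CPM in YUMM1.7 and 5.82 CPM in naive nodes, and all 10 T cell markers were detected in the class, summing to 13.7 CPM in YUMMER1.7, 14.9 CPM in YUMM1.7 and 48.1 CPM in naive nodes. Their part in the Tgfbr2 difference was not tested.

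Itgb8, the chain that gives the integrin its hold on latent TGF-beta, was highest in migratory DC among the 11 classes compared in the enriched fraction. Migratory DC held 82.0% of the Itgb8 UMIs of the enriched YUMMER1.7 library, 92.3% of those of YUMM1.7 and 93.1% of those of naive nodes. They were 907 of 6466 cells in YUMMER1.7, 978 of 7095 in YUMM1.7 and 2140 of 9951 in naive nodes. Beads for CD11b and CD11c were used for this fraction, so these shares are not those of the whole node. Migratory DC averaged 71.2 ± 30.6 CPM (SD, n = 3) and T cells 34.3 ± 15.6 CPM (SD, n = 3), and each of the other 9 classes compared averaged under 1 CPM. Only a minority of migratory DC had a UMI of it: 10.6% (8.66% to 12.8%) in YUMMER1.7, 17.4% (15.1% to 19.9%) in YUMM1.7 and 20.6% (18.9% to 22.3%) in naive nodes, Clopper-Pearson intervals in brackets. In B cells of the same libraries, which should lack it, the shares were 0% (0% to 0.602%) in YUMMER1.7, 0.254% (0.00644% to 1.41%) in YUMM1.7 and 0.140% (0.00355% to 0.779%) in naive nodes. The median depth was 10186 to 10971 UMIs per cell in migratory DC and 3729 to 4632 in B cells. After thinning every cell to 2000 UMIs the shares in migratory DC were 4.88% (3.51% to 6.58%) in YUMMER1.7, 8.81% (7.06% to 10.8%) in YUMM1.7 and 11.2% (9.90% to 12.7%) in naive nodes.

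In migratory DC Itgb8 was lowest in YUMMER1.7 nodes in both fractions. The enriched fraction had 37.5 CPM in YUMMER1.7, 78.8 CPM in YUMM1.7 and 97.3 CPM in naive nodes. The log2 ratio was -1.37 (-1.54 to -1.22) for YUMMER1.7 over naive and -1.07 (-1.25 to -0.90) over YUMM1.7, both past 2-fold, against -0.30 (-0.42 to -0.19) for YUMM1.7 over naive. The depleted fraction, a separate cell preparation, had 30.01 CPM in YUMMER1.7, 88.2 CPM in YUMM1.7 and 69.4 CPM in naive nodes, with log2 ratios of -1.21 (-1.59 to -0.84) for YUMMER1.7 over naive and -1.56 (-1.91 to -1.21) over YUMM1.7. Whether both fractions came from the same mice is not given in the labels. YUMM1.7 lay below naive in the enriched and above it in the depleted fraction, so its place relative to naive was not stable. By cluster of the enriched fraction, cluster 7 had 37.6 CPM in YUMMER1.7, 70.2 CPM in YUMM1.7 and 95.9 CPM in naive nodes. Cluster 3, in which Cd207, a Langerhans cell gene, was 46.3 CPM in YUMMER1.7, 34.5 CPM in YUMM1.7 and 41.9 CPM in naive nodes, had Itgb8 at 34.7 CPM in YUMMER1.7, 132 CPM in YUMM1.7 and 89.3 CPM in naive nodes. Cluster 23 had 55.00 CPM in YUMMER1.7, 164 CPM in YUMM1.7 and 147 CPM in naive nodes. YUMMER1.7 was lowest in each of these, and its Poisson intervals did not meet those of the other arms, though its cells were 46 in cluster 3 and 118 in cluster 23. The shallow cluster 16, with 68 YUMMER1.7 cells, had 0 Itgb8 UMIs, with an upper Poisson bound of 23.1 CPM.

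**Figure D3:**
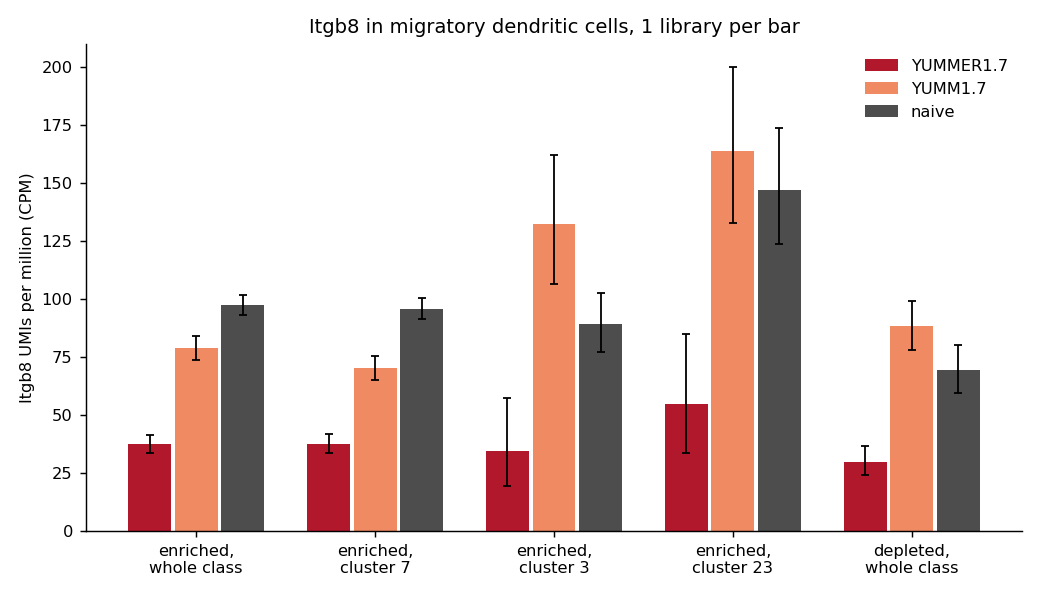
Itgb8 in migratory DC (CPM, bars from 0, error bars 95% Poisson intervals), for the whole class and its 3 deeper clusters in the enriched fraction and for the class in the depleted fraction. The YUMMER1.7 bar is the shortest in each group, at 37.5 CPM in the enriched and 30.01 CPM in the depleted class.

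Finer clustering of the enriched fraction (Leiden resolution 2) kept that order in most but not all of the migratory DC. In its largest migratory DC cluster Itgb8 was 21.4 CPM in YUMMER1.7, 52.5 CPM in YUMM1.7 and 54.1 CPM in naive nodes. In cluster 11 of that clustering Itgb8 was 104 CPM in YUMMER1.7, 92.5 CPM in YUMM1.7 and 123 CPM in naive nodes, so that YUMMER1.7 lay above YUMM1.7. Cluster 11 held 118 YUMMER1.7, 197 YUMM1.7 and 769 naive cells, so the shares of migratory DC with high Itgb8 also differed between arms. What part of the class-level difference the cluster shares carry was not tested. Its partner chain Itgav differed less, and migratory DC had Itgav at 87.7 CPM in YUMMER1.7, 111 CPM in YUMM1.7 and 90.4 CPM in naive nodes, a log2 ratio of -0.04 (-0.16 to 0.07) for YUMMER1.7 over naive.

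T cells were the second source of Itgb8. In the enriched fraction the T cell class, which is cluster 8, had 31.4 CPM in YUMMER1.7, 51.2 CPM in YUMM1.7 and 20.4 CPM in naive nodes, a log2 ratio of 1.33 (0.81 to 1.82) for YUMM1.7 and 0.62 (0.14 to 1.09) for YUMMER1.7 over naive. Foxp3, the defining factor of regulatory T cells, had 25.6 CPM in YUMMER1.7, 40.98 CPM in YUMM1.7 and 24.9 CPM in naive nodes in that cluster, so it was higher beside Itgb8 in YUMM1.7 and near the naive level in YUMMER1.7. At Leiden resolution 2 a regulatory T cell cluster, cluster 2, held 77 YUMMER1.7, 60 YUMM1.7 and 188 naive cells. The T cell cluster 9 of that clustering held 214 YUMMER1.7, 94 YUMM1.7 and 675 naive cells. So the share of regulatory T cells also differed between arms. The part of Foxp3 and of these shares in the T cell ratios was not tested. Among cells of all T cell classes with a Foxp3 UMI, Itgb8 was 47.5 CPM in YUMMER1.7, 212 CPM in YUMM1.7 and 101 CPM in naive nodes, from 36 YUMMER1.7, 20 YUMM1.7 and 67 naive cells. T cells without one had Itgb8 at 13.02 CPM in YUMMER1.7, 7.97 CPM in YUMM1.7 and 5.60 CPM in naive nodes, below the Foxp3-positive cells in each arm. In the depleted fraction T cells, named apart from regulatory T cells, averaged Itgb8 at 0.711 ± 0.616 CPM (SD, n = 3). Regulatory T cells of that fraction had 13.3 CPM in YUMMER1.7, 29.1 CPM in YUMM1.7 and 37.8 CPM in naive nodes, log2 ratios of -1.51 (-1.96 to -1.09) for YUMMER1.7 over naive and -1.13 (-1.64 to -0.64) over YUMM1.7. The clusters of the class differed in this. Cluster 19, with 32 YUMMER1.7, 121 YUMM1.7 and 382 naive cells, had Itgb8 at 107 CPM in YUMMER1.7, 78.3 CPM in YUMM1.7 and 77.2 CPM in naive nodes, and cluster 6, with 132 YUMMER1.7, 93 YUMM1.7 and 206 naive cells, had 5.73 CPM in YUMMER1.7, 11.5 CPM in YUMM1.7 and 15.6 CPM in naive nodes. YUMMER1.7 was above naive in cluster 19 and below it in cluster 6, and thinning to 2000 UMIs per cell gave log2 ratios of 0.0037 over naive and 0.80 over YUMM1.7. Outside leukocytes, fibroblastic reticular cells had Itgb8 at 5.50 CPM in YUMMER1.7 and 7.87 CPM in YUMM1.7 nodes. Lymphatic endothelium had 7 UMIs in YUMMER1.7 and 27 UMIs in YUMM1.7 nodes, a log2 ratio of -2.27 (-3.71 to -1.03).

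Itgav, the alpha chain that several beta chains share, was found in every class. In the enriched fraction its means ran from 168 ± 56.2 CPM (SD, n = 3) in T cells, followed by non-classical monocytes, down to 48.1 ± 14.3 CPM (SD, n = 3) in neutrophils, just under cDC2, and neighbouring classes overlapped in their ranges except non-classical monocytes and NK cells. Foxp3-positive T cells had Itgav at 251 CPM in YUMMER1.7, 689 CPM in YUMM1.7 and 511 CPM in naive nodes. Cells of the enriched T cell classes without a Foxp3 UMI averaged 97.4 ± 9.06 CPM (SD, n = 3). In the depleted fraction, where regulatory T cells were named apart, T cells averaged 40.6 ± 3.37 CPM (SD, n = 3). Regulatory T cells there averaged 148 ± 46.5 CPM (SD, n = 3). In the stroma the floor-type lymphatic cluster 18 had Itgav at 333 CPM in YUMMER1.7 and 305 CPM in YUMM1.7 nodes, above 162 CPM in YUMMER1.7 and 159 CPM in YUMM1.7 nodes in cluster 10. Fibroblastic reticular cells had 199.7 CPM in YUMMER1.7 and 168 CPM in YUMM1.7 nodes. A single Itgav ratio passed 2-fold, in NK cells of the depleted fraction, with 169 UMIs in YUMM1.7 and 155 UMIs in naive nodes and a log2 ratio of 1.14 (0.82 to 1.46). T cell markers summed there to 1632 CPM in YUMMER1.7, 1383 CPM in YUMM1.7 and 2294 CPM in naive nodes, and in NK cells of the enriched fraction the log2 ratio was 0.41 (0.16 to 0.65).

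**Figure D4:**
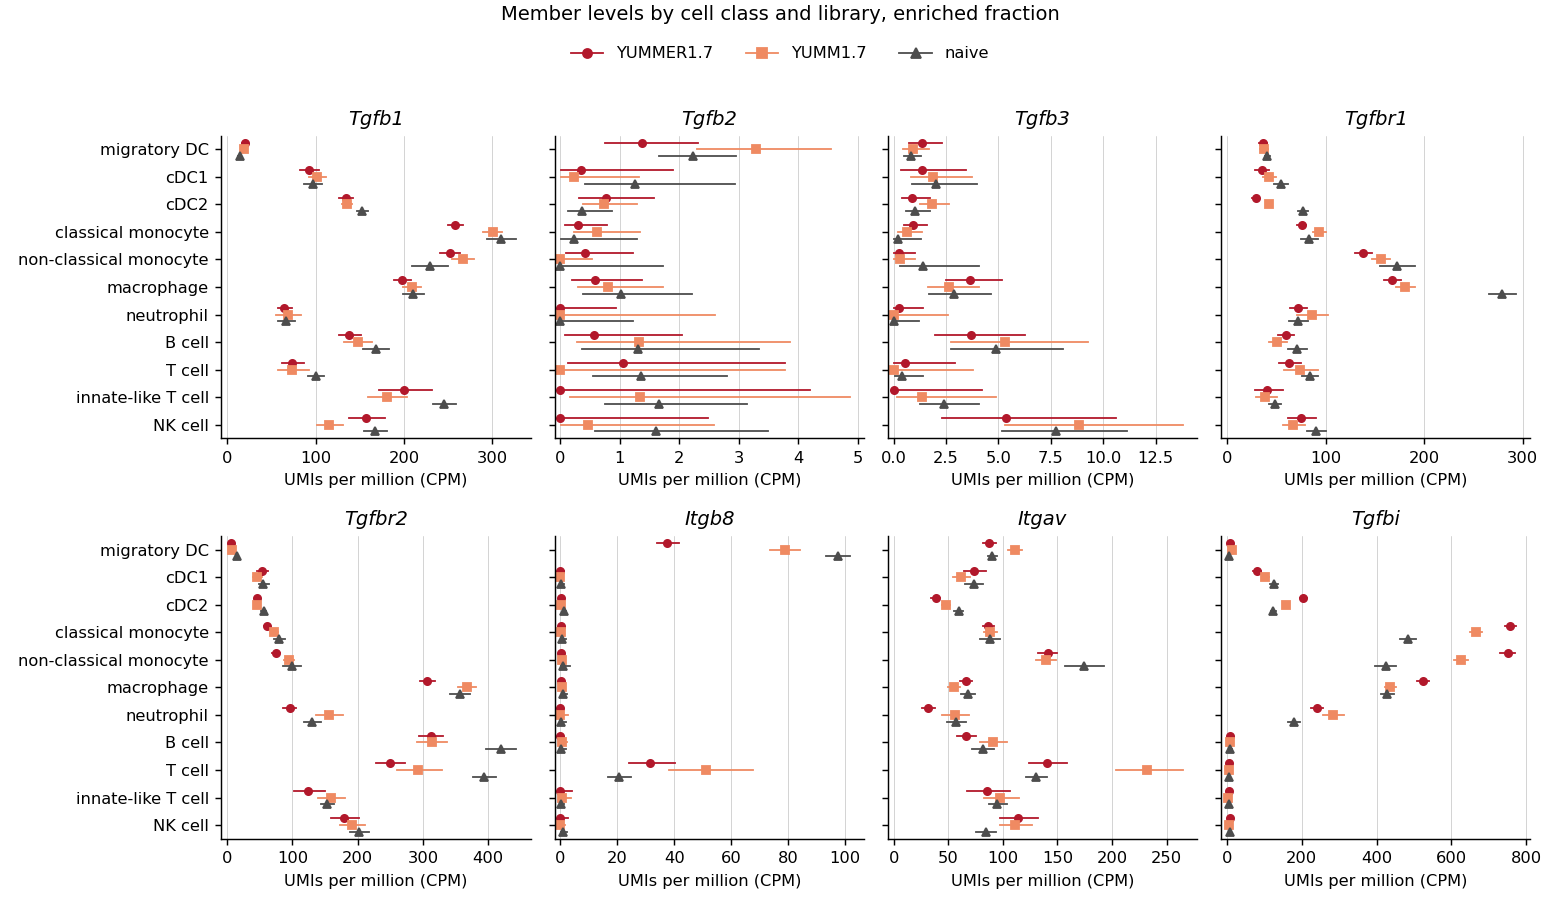
Levels of the 8 genes in the 11 classes of the enriched fraction, with 1 point per library (CPM, 95% Poisson intervals, a separate scale for each gene). Itgb8 stands high in migratory DC, at 37.5 CPM in YUMMER1.7, 78.8 CPM in YUMM1.7 and 97.3 CPM in naive nodes, and in T cells, and Tgfb1 and Tgfbr2 are lowest in migratory DC.

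Tgfbi encodes a secreted matrix protein named for its induction by TGF-beta, and its RNA sat in myeloid cells and reticular fibroblasts. Classical monocytes had 758 CPM in YUMMER1.7, 666 CPM in YUMM1.7 and 483 CPM in naive nodes and non-classical monocytes 751 CPM in YUMMER1.7, 626 CPM in YUMM1.7 and 424 CPM in naive nodes. Log2 ratios over naive were 0.65 (0.58 to 0.72) for YUMMER1.7 and 0.46 (0.39 to 0.53) for YUMM1.7 in classical monocytes. In non-classical monocytes they were 0.82 (0.72 to 0.93) for YUMMER1.7 and 0.56 (0.46 to 0.67) for YUMM1.7. Neutrophils had 241 CPM in YUMMER1.7, 284 CPM in YUMM1.7 and 179 CPM in naive nodes and cDC2 204 CPM in YUMMER1.7, 158 CPM in YUMM1.7 and 125 CPM in naive nodes. In these 4 classes both tumor-bearing libraries stood above the naive one. Within cDC2 cluster 13 the log2 ratio of YUMMER1.7 over naive was 1.17 (1.04 to 1.31), and within cluster 10 it was 0.78 (0.61 to 0.94).

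Tgfbi went the other way in cDC1 and in sinus macrophages. cDC1, the DC specialised in cross-presentation, had 79.3 CPM in YUMMER1.7, 103 CPM in YUMM1.7 and 125 CPM in naive nodes, a log2 ratio of -0.66 (-0.89 to -0.43) for YUMMER1.7 over naive. Macrophage cluster 4 had 193 CPM in YUMMER1.7, 232 CPM in YUMM1.7 and 389.5 CPM in naive nodes, a log2 ratio of -1.02 (-1.23 to -0.81), from 68 YUMMER1.7, 91 YUMM1.7 and 57 naive cells. Macrophage cluster 14 had 634 CPM in YUMMER1.7, 558 CPM in YUMM1.7 and 494 CPM in naive nodes, a log2 ratio of 0.36 (0.28 to 0.44). The arms therefore stood in opposite order in these macrophage clusters. In the stroma, fibroblastic reticular cells had 546 CPM in YUMMER1.7 and 375 CPM in YUMM1.7 nodes, a log2 ratio of 0.54 (0.45 to 0.64).

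Low Tgfbi counts in lymphocytes and migratory DC were low. In the enriched fraction migratory DC had 9.33 CPM in YUMMER1.7, 13.1 CPM in YUMM1.7 and 5.89 CPM in naive nodes, of which the YUMM1.7 over naive log2 ratio, 1.16 (0.81 to 1.51), passed 2-fold, while B cells had 7.63 CPM in YUMMER1.7, 7.94 CPM in YUMM1.7 and 9.14 CPM in naive nodes. B cells of the depleted fraction had Tgfbi at 4.70 CPM in YUMMER1.7, 2.63 CPM in YUMM1.7 and 0.344 CPM in naive nodes, log2 ratios of 3.77 (2.62 to 5.16) for YUMMER1.7 and 2.93 (1.75 to 4.34) for YUMM1.7 over naive. Plasma cells had 26 UMIs of it in YUMMER1.7, 14 in YUMM1.7 and 1 in naive nodes, a log2 ratio of 3.23 (0.62 to 8.59) for YUMMER1.7 over naive. The fibroblast collagen gene Col3a1 followed the same order in those B cells, with 54.7 CPM in YUMMER1.7, 27.05 CPM in YUMM1.7 and 0.197 CPM in naive nodes. The 8 markers of fibroblastic reticular cells summed there to 193 CPM in YUMMER1.7, 107 CPM in YUMM1.7 and 4.32 CPM in naive nodes, with all 8 detected in both tumor-bearing libraries and 6 in the naive one. Their part in the Tgfbi counts was not tested.

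Upstream sequence of Tgfbi and Tgfbr2 is shown as examples that hold a Smad box, for a gene that was higher in 9 of 11 and a gene that was lower in 11 of 11 enriched classes of YUMMER1.7 against naive nodes. The 9 for Tgfbi include low counts near a log2 ratio of 0. These were T cells at 0.01 (-1.08 to 1.01), innate-like T cells at 0.09 (-1.45 to 1.35) and NK cells at 0.12 (-0.94 to 1.11). For YUMM1.7 against naive, Tgfbi was higher in 6 of 11 and Tgfbr2 lower in 8 of 11. Tgfbr1, also lower in 11 of 11, had 0 boxes in the 250 bases before its start. A second Tgfbr1 window and the Itgb8 window lay inside their genes and held 1 each. Of the other members with a window, Tgfb2 held 2 boxes and Tgfb1 and Itgav 0. The sequence shown is RefSeq sequence on GRCm38, ending just before the GENCODE start of the gene, with each Smad box (CAGAC, or GTCTG on the other strand) in capitals. Tgfbi (chr13:56609336-56609522, + strand, 187 bases) held 2 such boxes, and Tgfbr2 (chr9:116175364-116175613, - strand, 250 bases) held 1.
Tgfbi: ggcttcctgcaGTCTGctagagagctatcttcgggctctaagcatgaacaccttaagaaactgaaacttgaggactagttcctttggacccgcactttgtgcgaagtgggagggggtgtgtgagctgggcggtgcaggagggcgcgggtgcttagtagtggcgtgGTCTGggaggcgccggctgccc
Tgfbr2: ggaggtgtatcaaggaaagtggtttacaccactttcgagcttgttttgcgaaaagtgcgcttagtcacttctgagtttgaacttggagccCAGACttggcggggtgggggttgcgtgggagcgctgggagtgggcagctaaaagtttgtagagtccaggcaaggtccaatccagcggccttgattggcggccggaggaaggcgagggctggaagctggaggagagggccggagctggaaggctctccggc
The box is short, and 42.2% of 32851 promoter windows of 250 bases held at least 1. The AP-1 motif (TGACTCA or TGAGTCA) was in neither sequence and in 4.46% of the windows.

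Of the 8 genes, 7 passed 2-fold between arms in at least 1 class, and Tgfb1 in none, but few pairs of gene and class did. A pair of gene and class was measured when both libraries had at least 50 cells and at least 20 UMIs together, and was called when its ratio was at least 2 or at most 0.5. YUMMER1.7 against naive had in the enriched fraction 0 of 63 pairs higher and 3 lower. That is a share of 4.76%, beside 8.18% of all gene and class pairs, of which 3.17% were higher and 5.02% lower. YUMM1.7 against naive had in the enriched fraction 2 of 63 pairs higher and 0 lower. That is a share of 3.17%, beside 5.75% of all gene and class pairs, of which 2.03% were higher and 3.72% lower. YUMMER1.7 against YUMM1.7 had in the enriched fraction 0 of 61 pairs higher and 3 lower. That is a share of 4.92%, beside 4.58% of all gene and class pairs, of which 2.39% were higher and 2.19% lower. YUMMER1.7 against naive had in the depleted fraction 2 of 33 pairs higher and 3 lower. That is a share of 15.2%, beside 9.07% of all gene and class pairs, of which 3.72% were higher and 5.35% lower. YUMM1.7 against naive had in the depleted fraction 2 of 37 pairs higher and 1 lower. That is a share of 8.11%, beside 6.30% of all gene and class pairs, of which 3.42% were higher and 2.88% lower. YUMMER1.7 against YUMM1.7 had in the depleted fraction 1 of 65 pairs higher and 4 lower. That is a share of 7.69%, beside 5.72% of all gene and class pairs, of which 2.34% were higher and 3.38% lower. The enriched shares lie near or under the background. The depleted shares lie above it but rest on few called pairs, 5 of 33, 3 of 37 and 5 of 65, so a pair or so more or less would move them much. Their counts include the Tgfbi pairs of B cells and plasma cells and the Tgfb2 pairs of plasma cells described above.

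Other genes of the pathway were counted from lists. Of the 17 latency and activation genes, 5 of 86 pairs were higher and 9 lower for YUMMER1.7 against naive in the enriched fraction, with a median log2 ratio of -0.04. Among them Thbs1, thrombospondin, another activator, had a log2 ratio of -1.53 in neutrophils and 1.42 in migratory DC, and Mmp14, a membrane protease, 1.11 in classical monocytes. Of the 8 co-receptors and related receptors, 1 of 65 pairs was higher and 5 lower, with a median of -0.31. Tgfbr3, the co-receptor betaglycan, had -1.92 in non-classical monocytes, and Acvrl1, a type I receptor, 1.19 in neutrophils. Of the 17 SMAD mediators and inhibitors, 1 of 172 pairs was higher and 8 lower, with a median of -0.26, beside -0.06 for all gene and class pairs. Skil, which blocks SMAD complexes, had -1.55 in cDC2 and -1.32 in cDC1, Tgif1, a SMAD corepressor, -1.005 in neutrophils, and Pmepa1, a feedback inhibitor, -1.04 in cDC1. Of 20 frequent TGF-beta targets, 9 of 111 pairs were higher and 15 lower, with a median of -0.21. Id2, a factor needed for DC development, had 1.29 in cDC2, Fn1, fibronectin, 3.37 in macrophages, and Axl, a receptor kinase, -1.89 in cDC2. For the neutrophil examples, 14.6% of all genes tested in that class passed 2-fold in this contrast. The class joins cluster 1, with 549 YUMMER1.7 and 740 naive cells, and cluster 17, led by Camp and Ngp, with 96 and 36. The cDC2 examples carry the same limit, from the shares of clusters 10 and 13 given above. The macrophage class joins clusters 14, 4 and 22, with 360, 68 and 94 YUMMER1.7 cells and 273, 57 and 720 naive cells. Fn1 was also among the leading genes of classical monocyte cluster 11. The part of cluster shares in these examples was not tested. The depleted fraction had 7 higher and 1 lower of 36 latency pairs, 4 and 6 of 32 co-receptor pairs and 1 and 9 of 92 SMAD pairs. Of its 68 target pairs 28 were higher and 6 lower, with a median of 0.50, among them Col3a1 in B cells at 8.12, whose levels are given above. The background for each of these counts is the share given above for the same contrast.

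In YUMM1.7 against naive the same lists gave 5 higher and 6 lower of 85 pairs for latency and activation, 1 and 6 of 66 for co-receptors, 1 and 4 of 172 for SMAD genes and 6 and 10 of 110 for targets in the enriched fraction, where 5.75% of all pairs were called. In the depleted fraction, where 6.30% of all pairs were called, they gave 6 higher and 0 lower of 39 for latency and activation and 3 and 3 of 33 for co-receptors. SMAD genes gave 0 and 6 of 106 there, and targets 24 and 6 of 74 with a median of 0.29, beside -0.25 in the enriched fraction. The limit from stromal RNA given above holds for these depleted counts too. Levels of a pair of partners of the latent ligand, picked for their role after values were seen, follow. Nrros, which anchors latent TGF-beta on myeloid cells, was 387 CPM in YUMMER1.7, 459.5 CPM in YUMM1.7 and 459.6 CPM in naive nodes in classical monocytes, where Tgfb1 was highest. Lrrc32 (GARP), which anchors it on regulatory T cells, was 12.5 CPM in YUMMER1.7, 14.7 CPM in YUMM1.7 and 14.7 CPM in naive nodes in that class of the depleted fraction.

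Genes whose class pattern was most like a member's were sought by Pearson's r of log2(CPM + 1), averaged over the libraries, across the 11 classes of the enriched fraction and 9014 genes, as a description. For Itgb8 these were Ikzf4 with r = 0.98, Tnfrsf4 with r = 0.98 and Dusp14 with r = 0.97. For Tgfbi they included Cd300c2 with r = 0.99, for Tgfb1 Ythdf1 with r = 0.94, for Tgfbr2 Utp4 with r = 0.93 and for Tgfbr1 Gm20732 with r = 0.90. Itgav was closest to Gm13684, with r = 0.87, which overlaps Itgav on the opposite strand. Tgfb2 and Tgfb3 were under the 20 CPM minimum of that search.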

How the data were processed

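The deposited files are sparse matrices of raw UMI counts per gene and cell barcode, 1 per library, from the 10x Chromium GEM-X 3' v4 kit per the labels' protocols. The submitters' processing notes name Cell Ranger 8.0.1 and the mm10 genome. The file headers give version 8.0.1 for the enriched and 7.0.0 for the depleted fraction, whose gene lists differ, so the fractions were kept apart. The labels describe the depleted fraction both as de-enriched for CD45 and as selected with CD45 beads.

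From the deposited counts, cells with at least 500 UMIs, 300 genes and at most 10% mitochondrial UMIs were kept. Scrublet's own threshold marked 0% to 2.47% of cells, so the top 5% of scores were removed per library. Within a fraction, cells were brought to 10000 UMIs, log values were taken and clusters made (scanpy 1.11.5, 2000 variable genes, 30 components, 15 neighbours, Leiden resolution 1). A cluster took the name of a class if 3 or more class markers each had UMIs in 10% of its cells or more and a log2 fold of 0.5 or more over other cells. The rules that a cluster stays unnamed where another class has both a higher mean fold and more markers, and that a T cell name needs Cd3e, were added after the clusters were seen. No correction was made for free RNA. UMIs were summed per class and library, with classes of at least 20 cells for levels and 50 cells in both libraries for ratios. A count of 0 was set to 3 counts for a ratio. With 1 library per arm and fraction no test was possible. The calling step was tested on simulated data. Gene positions came from GENCODE vM21.

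All 8 members are named in every result, and of the pathway lists the genes with most UMIs among those past 2-fold. The members and lists were chosen with earlier results of these data known, and the sequences shown were chosen after the values were seen. Alternatives were a stricter cell filter, no doublet removal, Leiden resolutions 0.5 and 2, cells thinned to 2000 UMIs, other totals and other UMI minimums, and 2 settings added after the data were seen, which left out shallow clusters or kept the largest cluster of each class.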

Additional observations from a re-analysis of the deposited data

Results flagged for a closer look

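Itgb8 and Tgfbi each moved at least 1.5-fold up in 1 class and at least 1.5-fold down in another between the YUMMER1.7 and naive libraries of the enriched fraction, with counting intervals off 0. The difference between classes was not tested, since each arm is 1 library. For Itgb8 the log2 ratio was 0.62 in T cells, a class that included regulatory T cells in differing shares, and -1.37 in migratory DC. For Tgfbi it was -0.66 in cDC1, 0.71 in cDC2, 0.65 in classical monocytes, 0.82 in non-classical monocytes and 0.66 in migratory DC. In YUMM1.7 over naive, Tgfbi was -0.29 in cDC1 and 0.34 in cDC2. The 1.5-fold limit was set after the values were seen.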

How the results depend on the processing

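No paired analysis was possible because each arm has 1 library per fraction, and no library could be left out. The limit is therefore the unknown spread between mice, besides depth, which left Tgfb2 and Tgfb3 in leukocytes on few UMIs. Of called pairs of gene and class, 198 values kept their direction and stayed within counting error, 6 moved and 3 reversed. Of the 198, 21 came from the setting with no count minimum and 21 from the minimum of 50 UMIs. Those settings use the same counts as the main one, so their ratios could not differ. Thinning to 2000 UMIs left 14 within counting error, moved 3 and reversed 3. The reversed ones came from thinning to 2000 UMIs: Tgfb3 in cDC2 (YUMMER1.7 against YUMM1.7) gave a log2 ratio of 0.89, and Itgb8 in regulatory T cells gave 0.0037 against naive and 0.80 against YUMM1.7. Counts of called pairs in the enriched fraction moved as follows. For YUMMER1.7 against naive they were 5 with no doublets removed, 5 at Leiden resolution 0.5, 5 at resolution 2 and 12 with no count minimum. For YUMM1.7 against naive they were 5 with no doublets removed, 4 thinned and 10 with no count minimum. For YUMMER1.7 against YUMM1.7 they were 5 thinned, 8 with no count minimum and 1 with the largest cluster of each class alone. In the depleted fraction, YUMMER1.7 against naive gave 3 thinned, 9 with no count minimum, 3 at 50 UMIs and 2 with the largest cluster alone. YUMM1.7 against naive gave 1 with no doublets removed, 1 thinned, 7 with no count minimum and 1 at 50 UMIs. YUMMER1.7 against YUMM1.7 gave 8 thinned, 13 with no count minimum, 3 at 50 UMIs and 3 with the largest cluster alone. The other totals left 40 of 181 enriched and 54 of 169 depleted CPM levels within their intervals, since a smaller total raises every CPM, and thinning left 113 and 95. The cause of the other changes was not tested. The settings without shallow clusters and with the largest cluster alone were added after the data were seen.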

Other observations

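Clusters that could not be named also held these genes. Cluster 18 of the enriched fraction, led by Cntn1 and Il22 and without raised Cd3e, had Itgav at 206 CPM in YUMMER1.7, 357 CPM in YUMM1.7 and 467 CPM in naive nodes, above every named class of that fraction in YUMM1.7 and naive nodes, from 34 YUMMER1.7, 62 YUMM1.7 and 224 naive cells. Its Tgfbr2 was 214 CPM in YUMMER1.7, 259 CPM in YUMM1.7 and 337 CPM in naive nodes. Cluster 21, led by Hist1h1b, Nusap1 and Cenpf, had Tgfbi at 145 CPM in YUMMER1.7, 109.5 CPM in YUMM1.7 and 108 CPM in naive nodes.

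Tgfb2 in migratory DC differed between the fractions in every arm, with 8.07 CPM in YUMMER1.7, 7.56 CPM in YUMM1.7 and 7.93 CPM in naive nodes in the depleted and 1.38 CPM in YUMMER1.7, 3.29 CPM in YUMM1.7 and 2.24 CPM in naive nodes in the enriched fraction. The gene lists and software versions of the fractions differ, so preparation and processing cannot be told apart.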
